A study of Mus musculus with 12 samples.

Results

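The core planar cell polarity (PCP) genes are the transmembrane and membrane-associated components of the pathway that gives cells of an epithelium a common direction within its plane. Vangl1, Vangl2, Celsr1, Celsr2, Celsr3, Fzd3, Fzd6, Prickle1, Prickle2 and Ptk7 were taken from a list of gene names and matched by their GENCODE mouse names to the Ensembl identifiers of the count data. All 10 were found among the 55416 genes counted, and all 10 had enough counts to enter the comparison, as did 13269 genes in all. Bulk RNA-seq libraries were made from sorted inner hair cells (IHCs; 6 pools) and outer hair cells (OHCs; 6 pools), the sensory cells of the organ of Corti, at postnatal day 0 (P0). The question put to these genes was whether their transcripts differ in level between the 2 hair cell types.

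All 12 libraries carry the label WT. IHCs were sorted as cells positive for Atoh1-GFP, and OHCs as cells positive for Atoh1-GFP that also carried Insm1-GFP-Cre and R26-TdTomato. Both pools therefore came from animals with a GFP allele at the hair cell gene Atoh1, and the OHC pools in addition from animals with a Cre recombinase at Insm1, a gene that OHCs express and IHCs do not, which switched on tdTomato from the Rosa26 locus. The labels do not say whether IHC pools were restricted to pups with the Insm1 allele. Each library is a pool of cells, and the labels tie no pool to named pups or litters, so the p-values given here measure the spread between these pools.

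In the organ of Corti, the PCP pathway aligns the stereocilia bundles of all hair cells toward the lateral edge of the cochlea and takes part in the lengthening of the cochlear duct. In the general scheme of the pathway, the adhesion-type cadherins of the Celsr family bridge neighbouring cells, and Frizzled receptors gather with Dishevelled proteins on one face of a cell. The 4-pass membrane proteins Vangl1 and Vangl2 gather with Prickle proteins on the opposite face in that scheme. The arrangement in hair cells can differ from it, and protein positions were not measured here. Mice without Vangl2, without Celsr1 function or without both Fzd3 and Fzd6 have misoriented bundles, and Ptk7, an inactive receptor tyrosine kinase, is needed for the same alignment.

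Total counts on genes ran from 31490204 to 44017309 in IHC libraries and from 29564827 to 39121988 in OHC libraries. Ribosomal RNA took 21.5% to 56.9% of them in IHCs and 23.4% to 36.4% in OHCs, and IHC replicate 1 stood apart with the 56.9%, so results that turn on it are also given without it. Pearson correlations of log2 CPM were 0.787 to 0.863 among IHC libraries, 0.799 to 0.864 among OHC libraries and 0.715 to 0.810 between the cell types. The summed markers followed the labelled cell types: 4 IHC markers (Slc17a8, Otof, Fgf8 and Tbx2) summed to 1834 to 4284 CPM in IHCs and 359.8 to 687 in OHCs, 5 OHC markers (Insm1, Bcl11b, Neurod6, Ikzf2 and Slc26a5) to 2.16 to 23.5 CPM in IHCs and 108 to 202 in OHCs, and the sums of 6 general hair cell markers overlapped. All 4 IHC markers and 4 of the 5 OHC markers were called in the labelled direction, and Ikzf2 was not (log2 fold change of OHCs over IHCs -0.40, adjusted p = 0.840, quasi-likelihood test). Of the 6 general markers, Gfi1 was called IHC-enriched (log2 fold change -1.02, adjusted p = 0.0106, quasi-likelihood test). Myo7a, Pou4f3, Atoh1 and Lhx3 had log2 fold changes of -0.67 to -0.40, and Myo6, the most abundant, 0.47, all not called by that test. CPM here are counts scaled to a common library size after TMM normalization, which corrects for the few very abundant transcripts, and they compare a gene between libraries.

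Of the 10 core genes, 2 were IHC-enriched, Vangl2 and Prickle2, and none was OHC-enriched at an adjusted p under 0.05 by the quasi-likelihood test of edgeR, with p-values adjusted by Benjamini-Hochberg over all genes tested. Across all 13269 genes the same test called 3.81% IHC-enriched and 2.44% OHC-enriched. The count of 0 OHC-enriched core genes was also 0 at an unadjusted p under 0.05, with DESeq2 and with edgeR's exact test. DESeq2 called 7.92% of its genes IHC-enriched and 9.40% OHC-enriched, the exact test 5.66% and 3.91%, and both called the same 2 core genes as the quasi-likelihood test. Log2 fold changes are those of OHCs over IHCs, so a negative value means a higher level in IHCs. The median log2 fold change of the 10 genes was -0.34, against -0.04 over all genes tested, with 8 fitted lower in OHCs and 2, both Frizzled receptors, fitted higher. The share of all genes fitted lower was not counted. Of the 10, only the 2 called genes had an unadjusted p under 0.05 by the quasi-likelihood test. The signs of Celsr3, Prickle1 and Ptk7, among those fitted lower, changed with a library left out. The libraries of the cell types did not overlap for 1 of the 10 genes, Prickle2, with IHCs above OHCs, a separation found for 2.37% of all genes tested.

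Vangl2, which lies on chromosome 1 (171828527 to 171856011, minus strand, GRCm39), is the Vangl paralogue whose loss gives the strongest bundle defects. Its level ranged from 196 to 543 CPM in IHCs, with a median of 427, and from 116 to 218 CPM in OHCs, with a median of 165. IHC replicate 4, the lowest of its group, lay within the range of the OHC libraries, and the other 5 IHC libraries lay above all OHC libraries. The means were 391 ± 150 CPM in IHCs and 164 ± 35.3 in OHCs (SD, n = 6 each). The log2 fold change was -1.26 (SE 0.26, 95% interval -1.80 to -0.72, adjusted p = 0.00511 by the quasi-likelihood test), a level 2.39-fold higher in IHCs. Over the 12 fits that each omitted a library it ran from -1.40 to -1.16, with adjusted p-values of 0.00161 to 0.0175, and without IHC replicate 1 it was -1.25. In pools of cells, fewer cells that express a gene and less RNA per cell cannot be told apart.

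Prickle2, a cytoplasmic protein with LIM domains that binds Vangl proteins, lies on chromosome 6 (92347873 to 92683215, minus strand, GRCm39) and had the largest log2 fold change of the 10 genes in either direction. It ranged from 30.4 to 69.7 CPM in IHCs, with a median of 44.4, and from 10.7 to 21.1 CPM in OHCs, with a median of 14.2. The lowest IHC library exceeded the highest OHC library. The means were 46.6 ± 14.8 and 14.8 ± 4.13 CPM (SD, n = 6 each), a level 3.16-fold higher in IHCs, with a log2 fold change of -1.66 (SE 0.35, 95% interval -2.38 to -0.93, adjusted p = 0.00615 by the quasi-likelihood test). Over the 12 fits that each omitted a library it ran from -1.80 to -1.52, with adjusted p-values of 0.00383 to 0.0176, and without IHC replicate 1 it was -1.74.

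**Figure D1:**
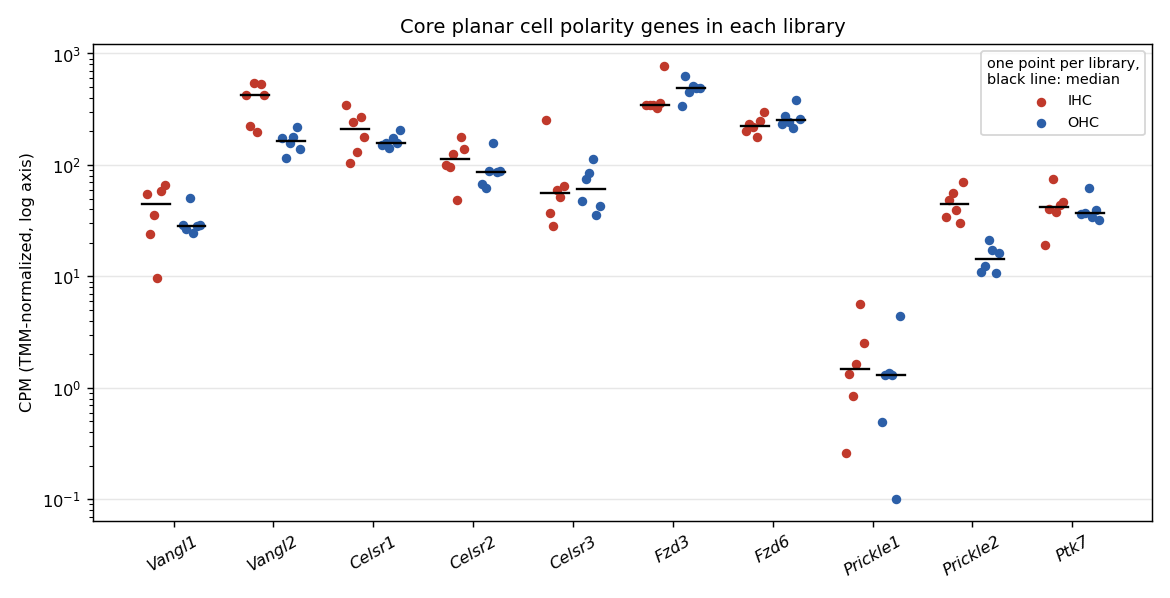
CPM of the 10 core PCP genes in each of 6 IHC and 6 OHC libraries (vertical axis, log scale), with 1 point per library and a line at the median of each cell type. For Prickle2 the points of the cell types do not overlap, for Vangl2 1 IHC library lies within the OHC range, and for the other 8 genes the points overlap.

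Summed markers of several other cell types were also higher in IHC libraries, though not every marker was. Of 12 supporting cell markers, 2 (Sox2 and Gjb2) were IHC-enriched, and the list summed to 379.5 to 842 CPM in IHCs and 111 to 369 in OHCs, with none of them at 0 in either cell type. Of the other 10, which the quasi-likelihood test did not call, Hes1, Hes5 and Hey1 had log2 fold changes above 0, of 0.49, 1.32 and 0.50. The greater epithelial ridge list summed to 707 to 1608 CPM in IHCs and 147 to 598 in OHCs, with 1 of 6 markers (Tecta) called. Tectb and Otoa, also of that list and not called, had medians of 177 and 4.23 CPM in IHCs and 185 and 9.22 in OHCs. A mesenchyme list of 8 genes summed to 33.9 to 58.0 and 7.22 to 21.9 CPM, with 0 called by the quasi-likelihood test (2 at an unadjusted p under 0.05, and Col3a1 alone by DESeq2 and by the exact test), and a spiral ganglion neuron list of 6 genes to 717 to 1324 and 201 to 371 CPM, with 2 called (Nefm and Snap25) and Th at 0 in all IHC libraries. In the mesenchyme list, Lum had the highest median in IHCs, 28.0 CPM, against 3.29 in OHCs. Twist1, Tbx18 and Postn, which were not tested, had higher medians in OHCs. These were 0.0624, 0.0388 and 0.469 CPM in OHCs, against 0.0122, 0.0153 and 0.245 in IHCs. The closest pair of supporting cell sums across the cell types was that of IHC replicate 1 and OHC replicate 4, at 379.5 and 369 CPM. These libraries had 427 and 179 CPM of Vangl2 and 34.5 and 17.4 CPM of Prickle2. They are a single pair and were not alike in the other lists. Their greater epithelial ridge sums were 707 and 512 CPM, and their mesenchyme sums 43.0 and 10.6 CPM. IHC replicate 1 is also the library with 56.9% ribosomal RNA. The part of these other cell types in the levels of Vangl2 and Prickle2 was not tested.

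RefSeq windows upstream of a transcription start (GRCm38.p6) were at hand for 6 of the 10 genes, Prickle2 with 4 windows and Vangl2 with 1. Prickle2 is shown because it separated the cell types fully and is the only one of the 6 genes with a match to a motif searched. The motifs, read on both strands of the 250 upstream bases, were GGTGTGA (T-box half-site), CAGCTG (an E-box of the type bound by basic helix-loop-helix factors such as Atoh1) and TAATTA (homeobox site), none of which contains another. They were present in 3.33%, 13.0% and 4.84% of 32851 RefSeq windows. Vangl2 held none of the 3, with 73.6% GC and 18 CpG, against medians of 52.4% and 6 over all windows. The windows of Prickle2 that held CAGCTG, in capitals, are given on the minus strand, the first without the part that lies in annotated transcripts, at chr6:92706235-92706434, and the other likewise, at chr6:92534914-92535111.
Prickle2 window 1: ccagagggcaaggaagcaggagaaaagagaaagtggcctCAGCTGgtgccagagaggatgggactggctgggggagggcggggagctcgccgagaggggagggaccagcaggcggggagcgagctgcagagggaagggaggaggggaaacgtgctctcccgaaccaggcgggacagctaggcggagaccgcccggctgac
Prickle2 window 3: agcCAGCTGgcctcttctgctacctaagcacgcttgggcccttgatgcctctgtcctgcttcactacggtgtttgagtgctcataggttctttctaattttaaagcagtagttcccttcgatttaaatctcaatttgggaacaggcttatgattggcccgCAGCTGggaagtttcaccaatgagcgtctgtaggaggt
Window 1 had 70.0% GC and window 3 had 50.8%, so the start sites of Prickle2 differ in base composition. A match describes the letters only, and gene counts do not show which start was used.

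The paralogues of the 2 IHC-enriched genes were not called. Vangl1 (chromosome 3, 102060899 to 102112057, minus strand) ranged from 9.77 to 66.6 CPM in IHCs (median 45.02) and from 24.6 to 50.4 in OHCs (median 28.5). The IHC libraries spread over 6.82-fold and lay on both sides of the OHC libraries, and the log2 fold change was -0.41 (95% interval -1.25 to 0.43, adjusted p = 0.594, quasi-likelihood test). Prickle1 (chromosome 15, 93394582 to 93494477, minus strand) was close to the limit of detection, with 3 to 190 counts per library, 0.262 to 5.67 CPM in IHCs and 0.100 to 4.45 in OHCs. Its log2 fold change of -0.44 had a 95% interval of -2.44 to 1.56 and became 0.18 without IHC replicate 5, so its direction was not determined at this depth.

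Celsr1 (chromosome 15, 85783126 to 85918438, minus strand), the Celsr gene most tied to bundle orientation, ranged from 103 to 346 CPM in IHCs (median 209) and from 143 to 206 in OHCs (median 158). Of the IHC libraries, 3 lay above and 2 below every OHC library. The means were 211 ± 91.7 and 165 ± 22.5 CPM (SD, n = 6 each), with a log2 fold change of -0.36 (95% interval -0.90 to 0.18, adjusted p = 0.447, quasi-likelihood test). Celsr2 (chromosome 3, 108298165 to 108323397, minus strand), which acts with Celsr3 in ependymal cilia and axon guidance, ranged from 48.3 to 179 CPM in IHCs and from 61.6 to 156 in OHCs. Its log2 fold change was -0.32 (95% interval -0.94 to 0.29, adjusted p = 0.561, quasi-likelihood test).

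Celsr3 (chromosome 9, 108703519 to 108730168, plus strand), best known for its role in axon tracts, varied most between IHC libraries among the genes above 10 CPM. It ranged from 28.6 to 65.1 CPM in 5 IHC libraries and reached 255 CPM in IHC replicate 1, while OHC libraries ranged from 35.8 to 112 CPM (median 61.2). The log2 fold change was -0.32 with all libraries (95% interval -1.25 to 0.62, adjusted p = 0.725, quasi-likelihood test) and 0.44 without IHC replicate 1 (adjusted p = 0.480, from a range of 0.480 to 0.973 over all alternatives). The sign for Celsr3 thus changed without the library with the highest share of ribosomal RNA, whose part was not tested further. It also changed, to a log2 fold change of 0.040, with all libraries and a replicate block in the fit.

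The Frizzled receptors were the 2 core genes fitted higher in OHCs, and neither was called. Fzd6 (chromosome 15, 38869243 to 38901584, plus strand) ranged from 179 to 300.2 CPM in IHCs (median 226) and from 215 to 386 in OHCs (median 251). Its log2 fold change was 0.22 with the narrowest interval of the 10 genes, from -0.19 to 0.63 (adjusted p = 0.555, quasi-likelihood test), which as a fold of OHCs over IHCs runs from 0.875 to 1.55. Fzd3 (chromosome 14, 65429573 to 65499933, minus strand) lay at 325.5 to 358.5 CPM in 5 IHC libraries and at 778 CPM in IHC replicate 6, and ranged from 335 to 626 CPM in OHCs (median 489). Its log2 fold change was 0.21 (95% interval -0.27 to 0.69, adjusted p = 0.631, quasi-likelihood test). Only IHC replicate 6 exceeded the OHC range, and without it the log2 fold change of Fzd3 was 0.48, with an adjusted p of 0.141, the lowest of a range of 0.141 to 0.838 over all alternatives.

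Ptk7 (chromosome 17, 46875376 to 46940446, minus strand) had the smallest log2 fold change of the 10, -0.12 (95% interval -0.81 to 0.56, adjusted p = 0.861, quasi-likelihood test). It ranged from 19.2 to 74.6 CPM in IHCs (median 42.1) and from 32.1 to 62.0 in OHCs (median 36.7), and the groups overlapped. Without IHC replicate 3, the highest IHC library, the log2 fold change was 0.091.

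**Figure D2:**
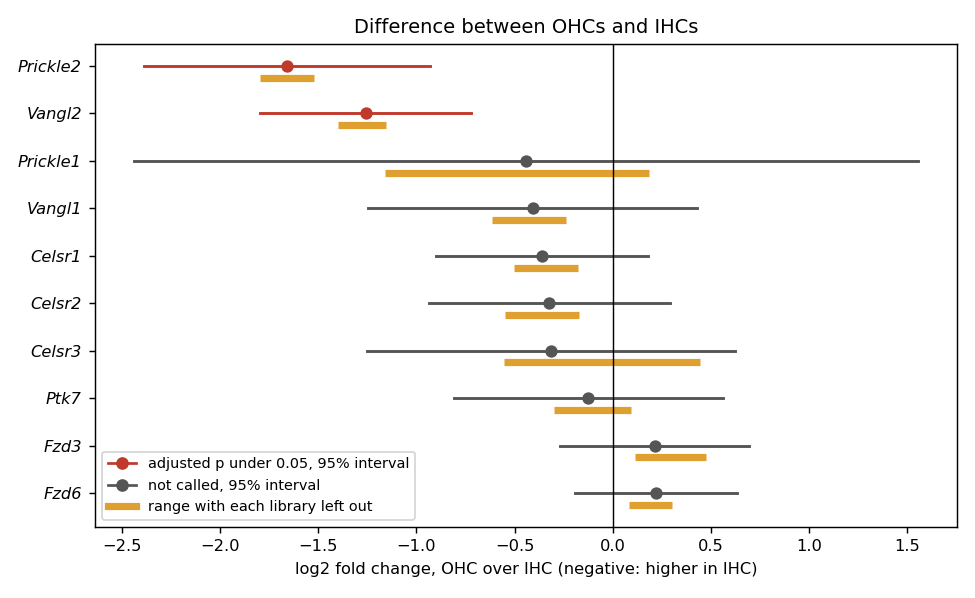
Log2 fold change, OHC over IHC, of the 10 core PCP genes (horizontal axis), with thin bars for the 95% interval and a thick bar beneath each for the range of the 12 fits that each omit 1 library. The intervals of Prickle2 (-2.38 to -0.93) and Vangl2 (-1.80 to -0.72) lie below 0, the other 8 include 0, and the thick bars of Celsr3, Prickle1 and Ptk7 cross 0.

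Levels of different genes were compared as TPM, which divide counts by exon length and are scaled to a fixed total in each library. In IHCs the order of median TPM was Vangl2 (134.7), Fzd6 (82.6), Fzd3 (67.8), Celsr1 (43.6), Celsr2 (23.4), Ptk7 (16.2), Celsr3 (12.2), Prickle2 (11.6), Vangl1 (7.60) and Prickle1 (0.284). In OHCs it was Fzd6 (122.8), Fzd3 (110.0), Vangl2 (73.4), Celsr1 (44.3), Celsr2 (20.7), Celsr3 (16.9), Ptk7 (16.5), Vangl1 (7.96), Prickle2 (4.67) and Prickle1 (0.311). Vangl2 thus had the highest median TPM of the 10 in IHCs and the third in OHCs, and Prickle1 was last in both. The ranges of neighbours in these orders overlapped, except that Vangl1 lay above Prickle1 in IHCs, and Vangl2 above Celsr1 and Prickle2 above Prickle1 in OHCs. Within single libraries, Vangl2 exceeded Fzd6 in 5 of 6 IHC libraries, and Fzd3 exceeded Vangl2 in all 6 OHC libraries.

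Shares of TPM within a library do not depend on the scaling between libraries. Of the summed TPM of the 10 genes, Vangl2 made up 25.3% to 40.8% in IHCs, with a median of 30.4%, and 11.998% to 21.4% in OHCs, with a median of 17.3%, without overlap. It was the only one of the 10 whose shares did not overlap. The median share was 19.3% in IHCs and 28.6% in OHCs for Fzd6, 17.3% and 26.0% for Fzd3, and 3.35% and 1.17% for Prickle2. The summed TPM of the 10 genes itself overlapped, from 164 to 817 in IHCs and from 348 to 470.2 in OHCs.

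**Figure D3:**
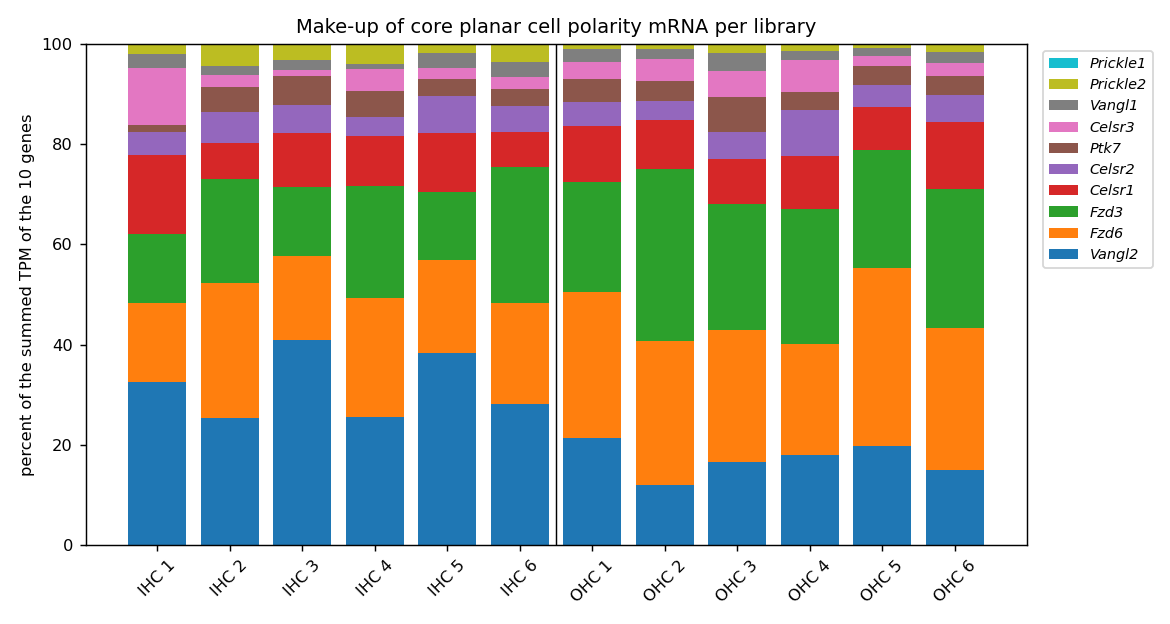
Stacked bars of the share of each core PCP gene in the summed TPM of the 10 genes (percent), with 1 bar for each of 6 IHC and 6 OHC libraries. Vangl2 (lowest segment) takes 25.3% to 40.8% in IHCs and 11.998% to 21.4% in OHCs, and the shares of the other 9 genes overlap between the cell types.

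Within families, the order of paralogues was mostly shared by the cell types. Vangl2 exceeded Vangl1 in TPM in 12 of 12 libraries, with a median ratio of 13.3 in IHCs and 7.84 in OHCs, and Vangl1 made up 3.31% to 9.67% of the Vangl total in IHCs and 8.14% to 18.04% in OHCs. Celsr1 exceeded Celsr2 and Celsr3 in 12 of 12 libraries, and Celsr2 exceeded Celsr3 in 9 of 12. Prickle2 exceeded Prickle1 in 12 of 12, with ratios of 5.10 to 185. Fzd3 and Fzd6 were nearly balanced, with Fzd3 above Fzd6 in 3 of 12 libraries and a median ratio of 0.853 in IHCs and 0.964 in OHCs.

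The spread between pools was larger in IHCs. The coefficient of variation was higher in IHCs than in OHCs for 8 of the 10 genes, as it was for 65.8% of all genes tested. Among the genes above 10 CPM it ran from 18.4% (Fzd6) to 103% (Celsr3) in IHCs and from 13.7% (Celsr1) to 44.2% (Celsr3) in OHCs. The kit used for cDNA does not mark strand, and up to 8.41% of the exonic bases of a core gene are shared with a gene on the opposite strand. This was Fzd6, with a long noncoding RNA that is not among the genes counted. Fzd6 also shares 4.93% with the long noncoding RNA Gm26704, which had up to 537 counts. Prickle2 shares 3.66% with a long noncoding RNA that was likewise not counted, while Vangl2, Prickle1 and Ptk7 share none.

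A further 58 genes of the pathway, in 7 lists by role, were measured beside the core, and 51 of them were tested. Of these, 2 were IHC-enriched (Dvl3 and Emx2), 1 was OHC-enriched (Frzb) and 48 were not called, so 5.88% were called, against 6.26% of all genes tested. Their median log2 fold change was -0.16.

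Among 6 tested cytoplasmic partners of the core, 1 was called, and the median log2 fold change was -0.34. Dvl3, a Dishevelled protein that relays Frizzled signals, had means of 249 ± 93.8 CPM in IHCs and 123 ± 40.0 in OHCs (SD, n = 6 each). It ranged from 165 to 375 CPM in IHCs and from 87.7 to 199 in OHCs, and 3 IHC libraries lay above all OHC libraries. Its log2 fold change was -1.02 (SE 0.26, adjusted p = 0.0228, quasi-likelihood test). Without IHC replicate 3 or 5 or OHC replicate 2, 4 or 6 the call was lost, and the adjusted p reached 0.0596 without OHC replicate 6. Dvl2, the other highly ranked gene of that list by TPM, was scarce, at 2.24 to 27.0 CPM in IHCs and 2.22 to 18.2 in OHCs, and shares 22.6% of its exonic bases with Acadvl. Ankrd6, the vertebrate relative of fly Diego and named here after its values were seen, missed the threshold, with 5.44 ± 5.82 CPM in IHCs, 25.6 ± 10.2 in OHCs and an adjusted p of 0.0521 by the quasi-likelihood test.

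Of 12 tested genes that orient the hair bundle within the cell, 1 was called. Emx2, a homeobox transcription factor that sets the direction bundles face, ranged from 51.3 to 111 CPM in IHCs and from 16.4 to 35.1 in OHCs, without overlap. Its log2 fold change was -1.39 (SE 0.29, adjusted p = 0.00670, quasi-likelihood test), and it was called in 12 of 12 fits that left out a library. It shares 13.9% of its exonic bases with the antisense transcript Emx2os, which had up to 3378 counts, and reads of the overlap cannot be told apart. Insc and Gnai2, which mark the bare zone of the apical surface with Gpsm2 and had the highest mean TPM of this list, were not called, with log2 fold changes of -0.29 and -0.60 and adjusted p-values of 0.518 and 0.142 by the quasi-likelihood test.

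Of 5 tested Wnt ligands, receptors and secreted inhibitors, 1 was called. Frzb, a secreted Frizzled-related protein that binds Wnts, had 0 to 10 counts in IHC libraries, at most 0.244 CPM, and 3.63 to 34.7 CPM in OHC libraries, so the OHC libraries all exceeded the IHC libraries, a separation found for 2.22% of all genes tested. The log2 fold change was 7.83 (SE 1.05, adjusted p = 1.01e-04, quasi-likelihood test), with a size that rests on very few IHC counts. Endothelial markers moved the same way: 6 of 7 were OHC-enriched, and the list summed to 0.302 to 5.08 CPM in IHCs and 15.4 to 199 in OHCs, highest in OHC replicate 3, with Cldn5 at 0 in all IHC libraries. Their part in the level of Frzb was not tested. Wnt7a, with the highest mean TPM of the ligands, was not called (adjusted p = 0.625, quasi-likelihood test). It lay at 0.899 to 3.33 CPM in 5 IHC libraries, below every OHC library (3.75 to 20.5 CPM), and at 80.4 CPM in IHC replicate 2. Its mean TPM includes the 53.0 TPM of that library.

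A further 3 lists had no called gene by the quasi-likelihood test, out of 4 tested Fat and Dachsous cadherin genes, 8 genes that sort or anchor Vangl and Celsr proteins and 8 ciliary PCP effectors. At an unadjusted p under 0.05, the counts were 1, 1 and 0. DESeq2 called 1 of these genes, Ttc8 among the ciliary effectors, and edgeR's exact test none. Their median log2 fold changes were -0.27, -0.16 and -0.12. Fat1 and Fat3, giant cadherins, had log2 fold changes of -1.25 and -0.60, with adjusted p-values of 0.149 and 0.352 by the quasi-likelihood test. Sec24b, the coat protein that exports Vangl2 from the endoplasmic reticulum, had a log2 fold change of -0.41, and Smurf2, a ubiquitin ligase that acts on Prickle, one of 0.45 (adjusted p = 0.261 and 0.178, quasi-likelihood test). Kif3a and Intu, the most abundant ciliary effectors per length, had log2 fold changes of -0.21 and -0.13 and were not called (adjusted p = 0.684 and 0.794, quasi-likelihood test).

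**Figure D4:**
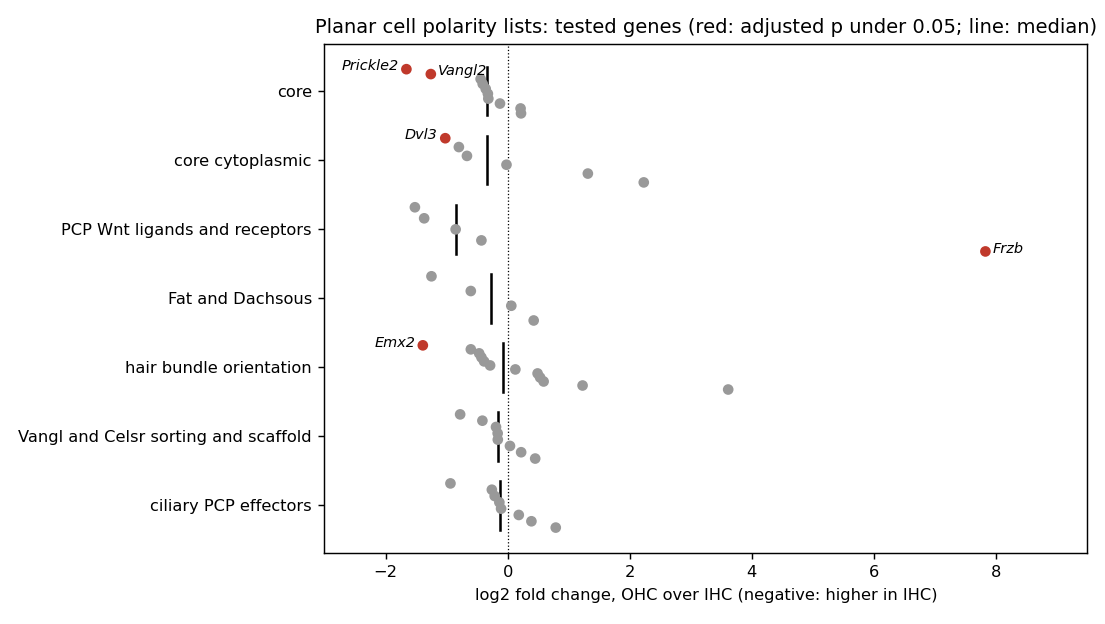
Log2 fold change, OHC over IHC, of the tested genes of the core and of 6 further PCP lists, with 1 point per gene, called genes in red and named, and a line at each list's median. The called genes are Prickle2, Vangl2, Dvl3 and Emx2 toward IHCs and Frzb toward OHCs, and the medians of the lists lie between -0.85 and -0.08.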

How the data were processed

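RNA was measured in 12 libraries, 6 of IHCs and 6 of OHCs, grouped by their labels. The values deposited by the authors are unnormalized read counts for each gene, made after trimming with Trimmomatic, 2-pass STAR alignment to GRCm39 and HTSeq counting in intersection-nonempty mode with GENCODE vM27, by the methods and processing notes. Tool versions and the HTSeq strand setting are not given in the sources used here, nor is a batch for each library. The 5 HTSeq summary lines were left out, and ambiguous reads made up 0.629% to 1.21% of all lines.

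Tests ran in edgeR 4.0.16 under R 4.3.3 (filterByExpr, minimum count 10, minimum total 15; TMM; glmQLFit and glmQLFTest; Benjamini-Hochberg, threshold 0.05), after the fit was tested on simulated data. CPM used TMM library sizes without a pseudocount, and the SE is the log2 fold change over the square root of F. TPM, coordinates and overlaps used GENCODE vM39, which holds 98.8% of the identifiers. Correlations used log2 CPM with a prior count of 2. Alternatives were DESeq2 1.42.0, edgeR's exact test, RLE normalization, other filters, ribosomal RNA left out, a replicate block and each library left out. Reads carry no molecular identifiers, so precision is read from the spread between libraries.

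The core genes and all lists were chosen with earlier results of these data known. Named genes are the 10 core genes and, of each other list, the called genes and the 2 with the highest mean TPM, while others are marked as chosen after their values were seen. Of the 7 lists, 1 had no called gene and is counted in the totals but not otherwise reported here. Motif windows came from RefSeq tables.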

Additional observations from a re-analysis of the deposited data

Results flagged for a closer look

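Values that stood apart from the other 5 libraries of their cell type by Dixon's test at the 95% level were found in 11 of 44 sets of values checked, of which the Prickle1 and Prickle2 shares are complements of each other. The test flags about 5% of sets by chance if values are independent and normally distributed, which CPM need not be, so the number of sets is a description. Their causes were not tested. Of the core genes, Vangl1 was at 50.4 CPM in OHC replicate 3 (next highest OHC library 29.0), Celsr2 at 156 in OHC replicate 4 (next 88.4), and Celsr3 at 255 in IHC replicate 1 (next 65.1). Fzd3 was at 778 CPM in IHC replicate 6 (next 358.5), Fzd6 at 386 in OHC replicate 5 (next 273.5), Prickle1 at 4.45 in OHC replicate 6 (next 1.36), and Ptk7 at 62.0 in OHC replicate 3 (next 39.2). Beside the core, Dvl3 was at 199 CPM in OHC replicate 5 (next 127) and Frzb at 0.244 in IHC replicate 2 (next 0.0756). In IHC replicate 5, Prickle1 took 11.75% of the summed Prickle TPM (next 2.85%), which left Prickle2 at 88.25% (next lowest 97.1%).

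OHC replicate 3, apart for both Vangl1 and Ptk7, also had the highest sum of endothelial markers, 199 CPM. Neither Vangl2 nor Prickle2 CPM had a library that stood apart in this way.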

How the results depend on the processing

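The core counts of 2 IHC-enriched and 0 OHC-enriched genes were unchanged in all 19 alternatives, with Vangl2 and Prickle2 called in each. With libraries left out, the log2 fold change ran from -0.55 to 0.44 for Celsr3 (above 0 without IHC replicate 1), from -1.16 to 0.18 for Prickle1 (above 0 without IHC replicate 5) and from -0.30 to 0.091 for Ptk7 (above 0 without IHC replicate 3), none of them called. Of the other PCP genes, the IHC-enriched count of 2 ran from 1 to 2 with libraries left out, since Dvl3 was lost without IHC replicate 3 or 5 or OHC replicate 2, 4 or 6, and was 3 with DESeq2 (Prickle4 joined). The OHC-enriched count of 1 became 4 with DESeq2 (Ankrd6, Frzb, Stk32a and Ttc8), 3 with the exact test (Ankrd6, Frzb and Stk32a) and 2 without a filter on low counts (Ankrd6 and Frzb), and ran from 1 to 2 with libraries left out (Ankrd6 joined without IHC replicate 3 or 4, Stk32a without IHC replicate 5). With at least 10 counts required in every library it stayed at 1, but with Ankrd6 called and Frzb, like Prickle1, not fitted. The cause of these changes was not tested. Over all genes, the 506 IHC-enriched and 324 OHC-enriched (61.0% IHC-enriched) became 1339 and 1590 with DESeq2 (45.7%), 751 and 519 with the exact test and 893 and 918 without a filter (49.3%).

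Replicate numbers are shared by the cell types, but same-numbered libraries did not deviate together (correlations of -0.0313 to 0.0184), and 1 of 12 libraries correlated best with its own number. With the replicate block, the core counts stayed at 2 and 0, Ror1 joined the IHC-enriched genes, the OHC-enriched count of other PCP genes became 2 (Ankrd6 and Frzb), and Celsr3 had a log2 fold change of 0.040 with an adjusted p of 0.973. Leaving out ribosomal RNA genes raised the mean TPM of all 10 core genes in both cell types by more than their SD, since TPM sum to a fixed total.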

Other observations

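IHC replicates 2 and 4 were the 2 lowest IHC libraries for Vangl1, Vangl2, Celsr1 and Celsr2, 4 of the 10 core genes, a pattern noticed in the values and found for 6.80% of all genes tested. Vangl2 was at 221 and 196 CPM in these libraries and at 427 to 543 in the other 4, and Vangl1 at 24.1 and 9.77 CPM against 35.7 to 66.6. The other 6 core genes did not share it: Prickle2 was at 49.0 and 39.7 CPM in these libraries, against 30.4 to 69.7 in the other 4. No label separates these 2 libraries from the rest, and the pattern was not tested.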
